A study of Rattus norvegicus with 4 samples.

Results

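The heat shock chaperones of the cytosol and mitochondria were followed in rat liver through 10 genes, taken as the rows whose gene symbol was Hspa8, Hsph1, Dnaja1, Dnajb1, Hspd1, Hspe1, Hsp90aa1, Hsp90ab1, Hspb1 or Fkbp4. The deposited table lists 32545 genes. It held 9 rows under these symbols and none for Hspe1, 8 rows had a count above 0 in some library, and 7 had enough counts to be tested. Liver messenger RNA was sequenced in 4 libraries, 2 from rats under sleep restriction added to forced activity and 2 from rats under forced activity alone, so that both groups were kept active. The labels give no strain, sex, age or duration, and do not say whether the libraries of a group came from separate animals, so the p-values measure the spread between these libraries only.

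Heat shock proteins bind unfolded or partly folded proteins. In the cytosol HSP70 and its J-domain partners take up exposed chains, HSP110 proteins exchange the nucleotide of HSP70, and HSP90 with co-chaperones such as FKBP4 completes the folding of kinases and steroid receptors, the glucocorticoid receptor among them. In mitochondria, HSP60 (Hspd1) forms a barrel closed by its lid HSP10 (Hspe1). Some of these genes are transcribed in most unstressed cells, whereas others rise when heat shock factor 1 (HSF1) is activated. Hsph1, Dnajb1, Hsp90aa1 and Hspb1 were treated as inducible, Hspa8, Hsp90ab1, Dnaja1 and Fkbp4 as constitutive, and Hspd1 and Hspe1 as mitochondrial, although several of the constitutive and mitochondrial genes also respond to heat.

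HSF1 binds repeats of the letters GAA, each repeat inverted against the next. The 250 bases before the start of each gene were searched in RefSeq promoter sequences of build GRCr8, which differs from the build of the count table, rn6. Of the 10 members 9 had a sequence there. A short motif of 2 inverted repeats (GAANNTTC or TTCNNGAA) and a long motif of 3 (GAANNTTCNNGAA or TTCNNGAANNTTC) were looked for on both strands, and each long match also holds short ones. The short motif was present in 8 of the 9 member windows, against 13.5% of all 33469 windows, and the long motif was present in 4 of 9, against 0.663% of all windows. The 6 windows below are shown because they set inducible, constitutive and mitochondrial members side by side. Each reads 5′ to 3′ towards the gene's start and capitals mark the motif matches.
Hsph1, chr12:10427118-10427367, plus strand: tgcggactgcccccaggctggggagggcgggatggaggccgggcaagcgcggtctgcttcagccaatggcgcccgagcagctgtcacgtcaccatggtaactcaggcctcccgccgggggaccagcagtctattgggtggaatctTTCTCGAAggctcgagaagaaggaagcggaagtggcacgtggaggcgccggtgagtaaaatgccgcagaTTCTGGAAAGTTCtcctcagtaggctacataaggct
Dnajb1, chr19:41431142-41431391, minus strand: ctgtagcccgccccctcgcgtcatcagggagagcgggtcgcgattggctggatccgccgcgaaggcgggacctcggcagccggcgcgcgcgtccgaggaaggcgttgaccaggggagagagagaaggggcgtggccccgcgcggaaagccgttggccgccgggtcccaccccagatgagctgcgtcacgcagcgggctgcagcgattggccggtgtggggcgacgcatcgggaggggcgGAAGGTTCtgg
Hspb1, chr12:26432302-26432551, minus strand: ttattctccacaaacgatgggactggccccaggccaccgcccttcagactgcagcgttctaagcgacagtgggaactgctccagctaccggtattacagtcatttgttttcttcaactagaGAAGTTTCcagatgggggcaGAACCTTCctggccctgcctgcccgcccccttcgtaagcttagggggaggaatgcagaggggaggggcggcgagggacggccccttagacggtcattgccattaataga
Hsp90ab1, chr9:22930173-22930422, plus strand: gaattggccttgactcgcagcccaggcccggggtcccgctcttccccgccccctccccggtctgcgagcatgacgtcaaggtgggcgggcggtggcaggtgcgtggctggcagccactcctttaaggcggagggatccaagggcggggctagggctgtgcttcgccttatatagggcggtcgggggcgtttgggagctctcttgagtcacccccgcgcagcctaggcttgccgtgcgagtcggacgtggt
Hspa8, chr8:50080264-50080513, plus strand: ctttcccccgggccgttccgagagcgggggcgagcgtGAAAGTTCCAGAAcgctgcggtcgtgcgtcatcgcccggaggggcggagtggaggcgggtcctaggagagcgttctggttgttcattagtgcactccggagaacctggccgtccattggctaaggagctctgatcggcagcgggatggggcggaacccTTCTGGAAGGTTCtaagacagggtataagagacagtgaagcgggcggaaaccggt
Hspd1, chr9:64084038-64084287, minus strand: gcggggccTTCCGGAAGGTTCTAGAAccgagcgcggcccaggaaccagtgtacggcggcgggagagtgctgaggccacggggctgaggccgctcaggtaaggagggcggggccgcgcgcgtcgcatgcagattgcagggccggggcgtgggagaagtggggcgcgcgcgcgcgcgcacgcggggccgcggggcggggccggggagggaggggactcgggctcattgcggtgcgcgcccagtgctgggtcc
Hsph1 and Hspa8 carried the long motif close to the start, beginning 36 and 55 bases before it, and Dnajb1 carried the short motif 11 bases before it. Hspb1 had 2 short matches. No match lay in the Hsp90ab1 window. Dnaja1 and Fkbp4, which are not shown, had 1 short match each. The matches of Hspd1 lay between positions 64084262 and 64084279 of chromosome 9, and those of Hspe1 covered the same bases, since the pair is transcribed in opposite directions from neighbouring starts. A match is a description of the letters and says nothing of whether HSF1 was bound in these livers.

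The totals of the 4 libraries were nearly equal, between 508202.6 and 520275.6 counts. The number of detected genes was less even: 14105 genes lay above 0 in sleep restriction 1 and 10952 in sleep restriction 2, against 14008 in forced activity 1 and 11943 in forced activity 2. The values look like averages over draws of reads to equal depth, which would set the totals. Sleep restriction 2 differed in holding nearly all whole values. In an average a gene lies above 0 if any draw held it, so numbers of detected genes may not be comparable between libraries. Counting error may also differ between libraries. The fits, with their SEs, p-values and intervals, treated the values of all 4 libraries alike, as counts. All 12 hepatocyte markers were detected. Normalised read counts below are counts per 1e6 counts over the tested genes (CPM) after scaling by TMM, a trimmed mean of ratios between libraries, and were not compared between genes because transcript lengths were not used. In bulk liver, fewer cells of a type and less RNA per cell cannot be told apart.

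None of the 7 tested members was called between sleep restriction and forced activity by edgeR's quasi-likelihood test at an adjusted p under 0.05, and none had an unadjusted p under 0.05. DESeq2 and limma-voom also called 0 members. Over all 4986 genes tested the share called was 0.0201%, which is 1 gene, and the share with an unadjusted p under 0.05 was 4.25%. The log2 change of sleep restriction over forced activity was positive for 6 of the 7 members, against 52.2% of all tested genes. It ran from -0.13 to 0.50 with a median of 0.20, while the median over all tested genes was 0.0039. Without sleep restriction 2 the median of the members was -0.019.

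**Figure D1:**
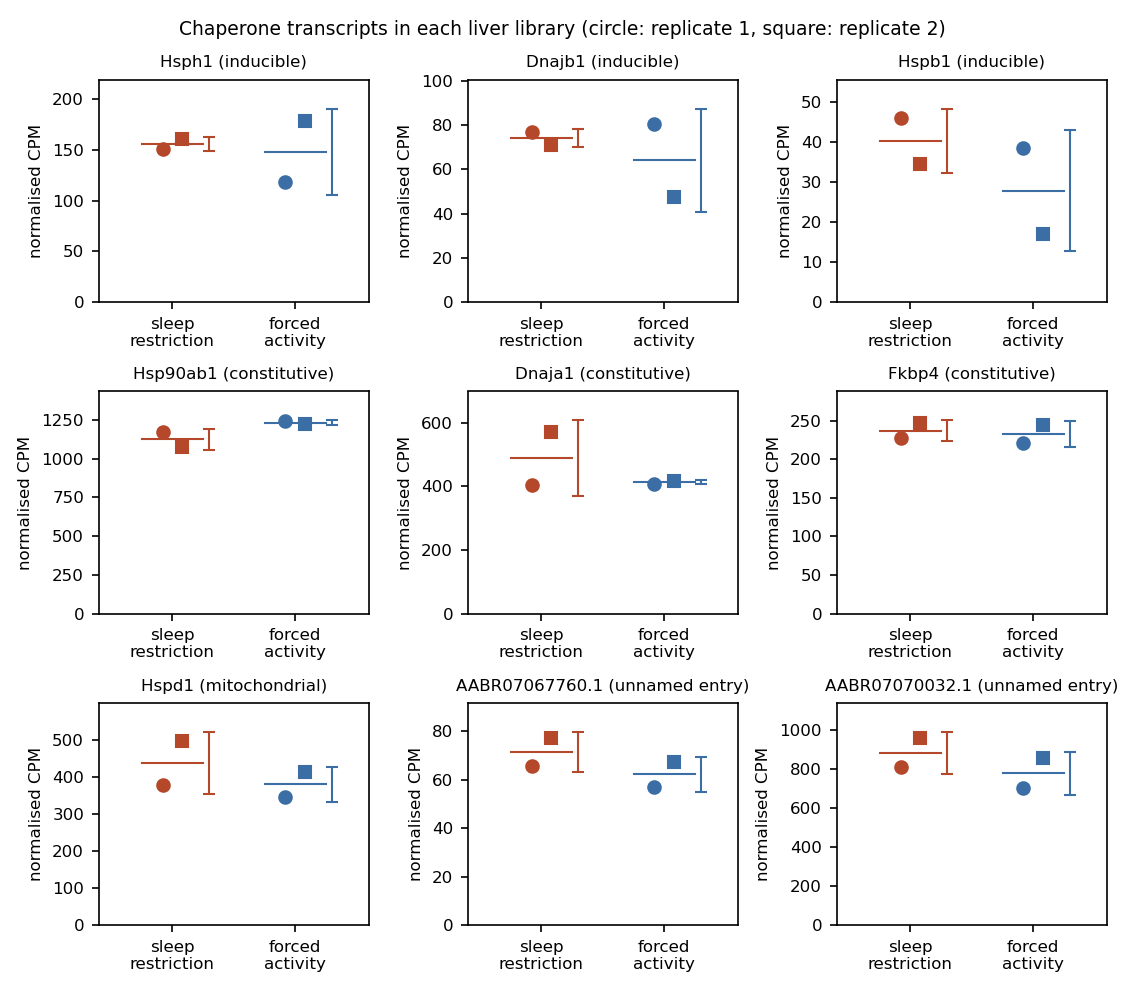
Normalised counts (CPM, vertical axes from 0) of the 7 tested members and of 2 entries without a gene name in each library, with sleep restriction in red on the left of each panel and forced activity in blue on the right; circles are replicate 1, squares replicate 2, horizontal lines the group means and bars the SD over 2 libraries. Of the 9, 1 has groups that do not overlap, Hsp90ab1, at 1171 and 1076 CPM under sleep restriction and 1241 and 1220 CPM under forced activity. Over all tested genes the groups do not overlap for 17.2% with sleep restriction higher and for 15.3% with it lower.

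Among the inducible members, Hsph1, the HSP110 protein that serves HSP70 as nucleotide exchange factor, had 151 and 161 CPM in sleep restriction 1 and 2, and 118 and 178 CPM in forced activity 1 and 2. Both sleep restriction libraries lay between the forced activity libraries. The fitted log2 change was 0.058 (SE 0.24, adjusted p = 0.997 in edgeR), with a 95% interval of -0.47 to 0.58. Without forced activity 1 it was -0.20, and without forced activity 2 it was 0.37.

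Dnajb1, the heat-inducible J-domain protein that hands substrates to HSP70, had 76.9 and 71.2 CPM under sleep restriction, against 80.5 and 47.7 CPM under forced activity. The low value of forced activity 2 set the direction. The log2 change was 0.22 (SE 0.27, adjusted p = 0.978 in edgeR, 95% interval -0.38 to 0.82), and it was -0.12 without forced activity 2 and 0.63 without forced activity 1. Within the replicate 1 libraries the difference was -0.063, and within the replicate 2 libraries it was 0.54.

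Hspb1, the small heat shock protein HSP27 (HSP25 in rodents), which holds unfolded proteins without using ATP, had 46.0 and 34.6 CPM under sleep restriction, against 38.6 and 17.1 CPM under forced activity. The groups overlapped, and sleep restriction was the higher of the pair in both replicate numbers, by 0.23 on the log2 scale in replicate 1 and 0.87 in replicate 2. Its log2 change of 0.50 (SE 0.33, adjusted p = 0.978 in edgeR, 95% interval -0.23 to 1.24) had the largest size among the 7 members. It also had the fewest counts, 22.6 and 17 under sleep restriction and 18.2 and 8.8 under forced activity. Plain counting of a single draw of reads at this mean would give a coefficient of variation of 24.5%, against 4.16% for Hsp90ab1. The change was 0.079 without forced activity 2 and 1.05 without forced activity 1.

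Forced activity 2, the library with the lowest Dnajb1 and Hspb1, had the highest sum of endothelial and red cell markers but not of macrophage or stellate cell markers. Of 12 sinusoidal endothelial markers 11 were detected, and Pecam1 had no row under its symbol. Their summed level was 667 and 370 CPM in sleep restriction 1 and 2, against 263 and 737 CPM in forced activity 1 and 2. The 6 red cell genes, all detected, summed to 1230 and 761 CPM under sleep restriction, against 926 and 1930 CPM under forced activity. The 12 macrophage markers, of which 11 were detected and Timd4 was at 0, summed to 1030 and 694 CPM under sleep restriction, against 655 and 846 CPM under forced activity. The 10 stellate cell markers, of which 9 were detected and Col1a2 was at 0, summed to 1050 and 818 CPM under sleep restriction, against 890 and 956 CPM under forced activity. The part of these cell types in the values of Dnajb1 and Hspb1 was not tested.

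Hsp90aa1, the inducible form of cytosolic HSP90, was listed at 0 in all 4 libraries. Plain counting of 0 in a single draw of reads allows up to 3 counts per library, or between 5.84 and 6.36 CPM. That limit covers counting error only and not reads that the counting left out, and it was not worked out for averages over draws. The table also lists all 37 mitochondrially encoded genes at 0. The Hsp90aa1 entry (ENSRNOG00000007219.7) runs from 135045161 to 135049930 on chromosome 6 in rn6, inside the listed intervals of Dync1h1 and RGD1305298. In RefSeq's GRCr8 annotation Hsp90aa1 comes after Dync1h1 and before Wdr20. Between the end of Dync1h1 and the start of Wdr20 the count table lists Rpl35a, at 0 in every library, and LOC103692716 (135107271 to 135112775). LOC103692716 was singled out after its values were seen. It held 8.8 and 5 counts under sleep restriction against 3.2 and 4.8 counts under forced activity, too few to test.

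Among the constitutive members, Hsp90ab1, the HSP90 form present in most cells, had 1171 and 1076 CPM under sleep restriction and 1241 and 1220 CPM under forced activity. Both sleep restriction libraries lay below both forced activity libraries, as they did for 15.3% of all tested genes, and 1 of the 7 members showed this. The log2 change was -0.13 (SE 0.18, adjusted p = 0.978 in edgeR), with a 95% interval of -0.54 to 0.28. It stayed negative in all 14 alternative fits, between -0.20 and -0.077, and reached an adjusted p under 0.05 in none of them. It was the only tested member with a negative change. Processed copies of HSP90 and HSP60 genes exist in mammalian genomes, and how reads shared with them were counted is not stated.

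Dnaja1, a J-domain partner of constitutive HSP70, had 403 and 572 CPM under sleep restriction, against 408 and 417 CPM under forced activity. Sleep restriction 2 was high and the other 3 libraries lay close together. The log2 change was 0.24 (SE 0.22, adjusted p = 0.978 in edgeR, 95% interval -0.24 to 0.72), and without sleep restriction 2 it was -0.038.

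Fkbp4, an HSP90 co-chaperone that assists the transport of steroid receptors, had 228 and 246 CPM under sleep restriction and 220 and 245 CPM under forced activity. The groups overlapped almost completely, and the difference within each replicate number was 0.045 and 0.0082. The log2 change was 0.025 (SE 0.20, adjusted p = 0.997 in edgeR), and its 95% interval from -0.41 to 0.46 leaves room for changes in either direction. Fkbp5, a related co-chaperone that glucocorticoids induce, had a log2 change of -0.094 (SE 0.29).

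Hspa8, the constitutive HSP70 known as HSC70, could not be assessed from its own symbol. The row named Hspa8 (ENSRNOG00000032585.5) spans 2095 bases of chromosome 5 from 99031013 to 99033107 in rn6, and held 0.7 and 0 counts under sleep restriction against 0.4 and 0 counts under forced activity. RefSeq places Hspa8 on chromosome 8, between Clmp and Bsx, with small nucleolar RNA genes inside it. In the count table the entry between Clmp and Bsx on chromosome 8 has no gene name, only the label AABR07070032.1 (ENSRNOG00000034066.5, 44990014 to 44993179), and 3 entries named SNORD14 lie within its interval. This entry was singled out after its values were seen. It held 397.6 and 472 counts under sleep restriction and 331.2 and 439.5 counts under forced activity. In CPM these were 809 and 960 under sleep restriction and 702 and 856 under forced activity, a log2 change of 0.18 (SE 0.20, adjusted p = 0.978 in edgeR). Mammalian genomes hold processed copies of Hspa8, and the files do not say how reads shared between copies were counted.

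The mitochondrial chaperonin was represented by Hspd1 alone. Hspd1 (ENSRNOG00000014525.5, chromosome 9, 61680530 to 61690956 in rn6) had 377 and 497 CPM under sleep restriction, against 346 and 413 CPM under forced activity. Sleep restriction was higher within both replicate numbers, by 0.12 and 0.26 on the log2 scale, while forced activity 2 lay above sleep restriction 1. The log2 change was 0.20 (SE 0.21, adjusted p = 0.978 in edgeR, 95% interval -0.27 to 0.67), and without sleep restriction 2 it was -0.019.

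Hspe1, the lid of the chaperonin, has no row under its symbol. RefSeq's GRCr8 annotation lists it directly between Hspd1 and Mob4. The only entry the count table lists between these genes is AABR07067760.1 (ENSRNOG00000051624.1, 61692154 to 61694599), which carries no gene name and was chosen after its values were seen. It had 65.5 and 77.3 CPM under sleep restriction, against 57.2 and 67.2 CPM under forced activity. The difference was 0.18 in replicate 1 and 0.19 in replicate 2, with a log2 change of 0.19 (SE 0.23, adjusted p = 0.978 in edgeR). From low to high, the libraries of this entry ran forced activity 1, sleep restriction 1, forced activity 2, sleep restriction 2. Hspd1, Fkbp4 and the unnamed entry of chromosome 8 had that order too, as did 7.28% of all tested genes, and it does not identify either entry.

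**Figure D2:**
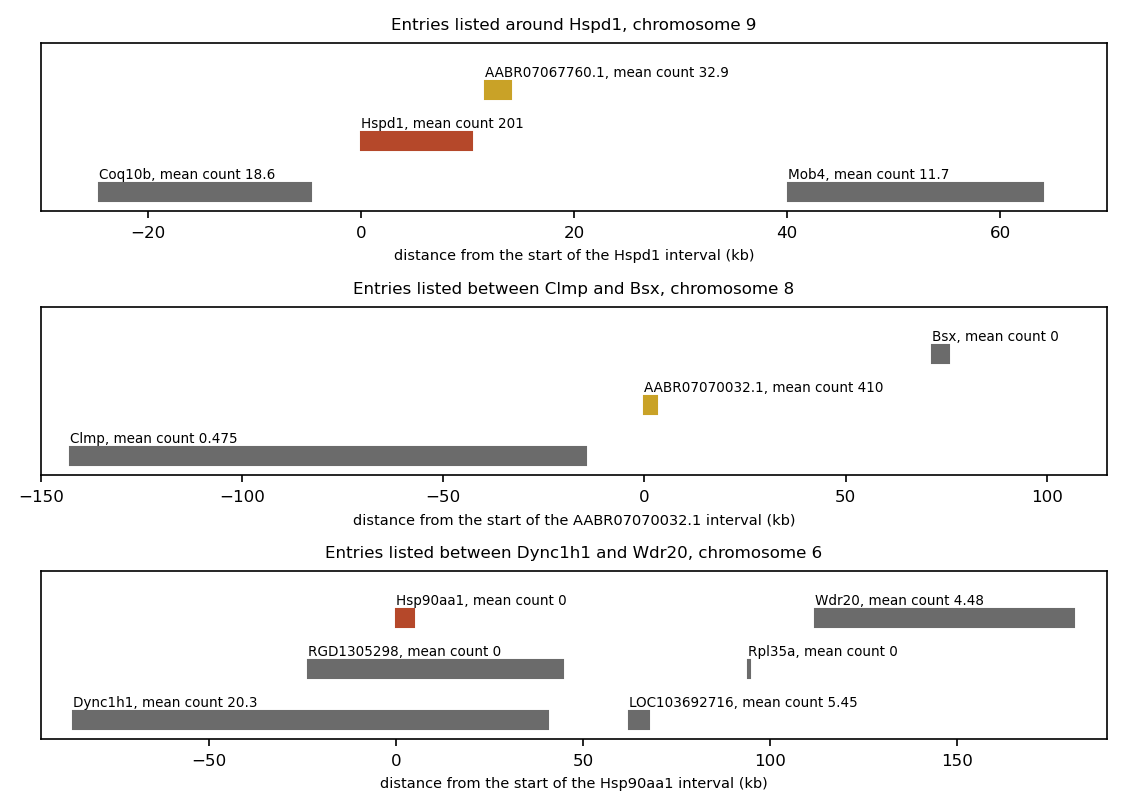
Intervals that the count table lists at 3 chaperone loci, drawn to scale as distance in kb from the start of the entry named under each axis, stacked only to keep labels apart, with the mean count of the 4 libraries beside each name and the SNORD14 entries left out. Members are red, entries without a gene name yellow and other genes grey; AABR07067760.1 lies between Hspd1 and Mob4, AABR07070032.1 between Clmp and Bsx, and Hsp90aa1 lies inside Dync1h1 with a count of 0.

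The 3 kinds of member were set beside each other. The median log2 change was 0.22 over 3 inducible members, 0.025 over 3 constitutive members and 0.20 for the 1 mitochondrial member. With 1 library left out at a time these ran from 0.079 to 0.63, from -0.048 to 0.098 and from -0.019 to 0.38, so the ranges overlapped. Relative to each member's own mean, the inducible members had a median log2 level of 0.17 and 0.088 in sleep restriction 1 and 2, against 0.23 and -0.47 in forced activity 1 and 2. The spread between the forced activity libraries was thus wider than the difference between the groups.

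The planned comparison within the J-domain family set inducible Dnajb1 against constitutive Dnaja1. The log2 ratio of their counts was -2.33 and -2.94 under sleep restriction and -2.28 and -3.03 under forced activity. The means differed by 0.023 (exact two-sided permutation test over 4 libraries, p = 1, where the smallest p this design allows is 0.333). Replicate 2 libraries had the lower ratio in both groups. The same comparisons of Hsp90aa1 with Hsp90ab1 and of Hspd1 with Hspe1 could not be made, since 1 gene of each pair was at 0 or without a row.

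Across the 7 members, 3 were higher under sleep restriction in both replicate numbers (Hspb1, Fkbp4 and Hspd1), a pattern of 28.7% of all tested genes, and 1 was lower in both (Hsp90ab1), a pattern of 27.4%. Sleep restriction 2 had the highest value of 3 members (Dnaja1, Fkbp4 and Hspd1), against 32.2% of all tested genes. Forced activity 1 had the lowest value of 3 members, Hsph1, Fkbp4 and Hspd1, against 22.5% of all tested genes. Replicate 2 exceeded replicate 1 in both groups for 4 members, Hsph1, Dnaja1, Fkbp4 and Hspd1, against 29.1% of all tested genes. No member had both sleep restriction libraries above both forced activity libraries, a pattern of 17.2% of all tested genes.

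**Figure D3:**
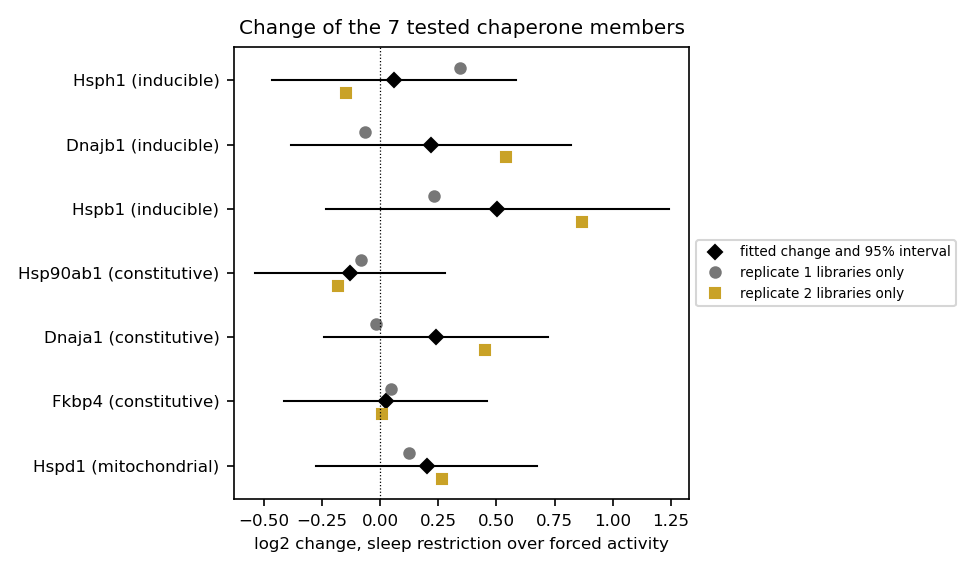
Log2 change of sleep restriction over forced activity for each tested member; diamonds and lines are the fitted change with its 95% interval, grey circles the difference between the replicate 1 libraries and yellow squares that between the replicate 2 libraries. Every interval includes 0, and the values of the 2 replicate numbers lie on opposite sides of 0 for Hsph1, Dnajb1 and Dnaja1.

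Other genes of the folding system were read from lists chosen with earlier results of these data known. Of 18 further HSF1 targets 10 were tested and 0 were called in either direction. A positive change was found for 9, against 52.2% of all tested genes, and the median was 0.18. The largest change among them was that of Bag3, the co-chaperone that directs HSP70 clients to autophagy, with 40.3 and 42.7 CPM under sleep restriction and 30.7 and 21.0 CPM under forced activity. Its log2 change was 0.64 (SE 0.27, unadjusted p = 0.0377, adjusted p = 0.978 in edgeR). Bag3 was the 1 gene of the 10 tested in this list with an unadjusted p under 0.05, against 4.25% of all tested genes. Forced activity 1 was the lowest library for 6 of the 10, against 22.5% of all tested genes. The median log2 difference in the list was 0.18 within replicate 1 and 0.23 within replicate 2. Forced activity 2 exceeded forced activity 1 by a median of 0.28.

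Stip1, the adaptor that joins HSP70 to HSP90, had a log2 change of 0.014 (SE 0.28). The classical stress-inducible HSP70 genes could not be tested. Hspa1a was listed at 0 in every library, and Hspa1b had 1.9 and 2 counts under sleep restriction against 3.9 and 1 counts under forced activity. The coding sequences of these genes are nearly identical, so the division of reads between them is uncertain.

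Of 39 relatives and partners of HSP70 and HSP90, 23 were tested, 0 were called, 11 were positive and 12 negative, with a median of -0.018. Dnajc2, a ribosome-associated J-domain protein, had 19.3 and 32.6 CPM under sleep restriction and 12.7 and 12.5 CPM under forced activity, a log2 change of 0.91 (SE 0.35, unadjusted p = 0.0265, adjusted p = 0.978 in edgeR). Its counts under forced activity were 6 and 6.4, below the filter's minimum of 10, so that it was kept only through sleep restriction. Hspa4, an HSP110 relative of Hsph1, had 106 and 195 CPM under sleep restriction, against 86.7 and 111 CPM under forced activity, and a log2 change of 0.58 (SE 0.29). As for Dnaja1, its highest library was sleep restriction 2. St13, which stabilises HSP70 in its substrate-bound state, had 0.23 (SE 0.21), and Hsf1 itself had 5.5 and 4 counts under sleep restriction against 5.1 and 3.7 counts under forced activity, below the filter.

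Of 23 other mitochondrial chaperones and proteases 19 were tested and 0 were called, 10 positive and 9 negative, with a median of 0.046. Hspa9, the mitochondrial HSP70, had 235 and 206 CPM under sleep restriction, above 198 and 161 CPM under forced activity, with a log2 change of 0.30 (SE 0.21, adjusted p = 0.978 in edgeR). Its groups did not overlap, with sleep restriction on top, a pattern of 17.2% of all tested genes. Pmpcb, a subunit of the mitochondrial processing peptidase, had 0.40 (SE 0.26), and Trap1, the mitochondrial HSP90, had -0.067 (SE 0.21).

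The cytosolic chaperonin and prefoldin list had 12 of 14 genes tested and 0 called, with 6 positive, 6 negative and a median of -0.043. Tcp1, a chaperonin subunit, had a log2 change of 0.34 (SE 0.22), and Vbp1, a prefoldin subunit, had -0.38 (SE 0.29). Vbp1 had 9.4 and 10 counts under sleep restriction against 12.8 and 12.7 counts under forced activity. Only the forced activity libraries lay above the filter's minimum of 10, so that it was kept through forced activity. Of 19 listed chaperones of the endoplasmic reticulum 18 were tested and 0 were called. The change was positive for 3 and negative for 15, against 52.2% positive over all tested genes, and the median was -0.19. The median log2 difference was -0.28 within the replicate 1 libraries and -0.071 within the replicate 2 libraries. Sleep restriction 2 exceeded sleep restriction 1 by a median of 0.44, which was larger than the median change between the groups. Sdf2l1 had 42.7 and 22.4 CPM under sleep restriction and 58.7 and 52.4 CPM under forced activity. Its log2 change was -0.71 (SE 0.30, unadjusted p = 0.0369, adjusted p = 0.978 in edgeR). It was the 1 gene of the 18 tested with an unadjusted p under 0.05, against 4.25% of all tested genes. Sil1, a nucleotide exchange factor, had a log2 change of -0.54 (SE 0.29). Hsp90b1, the HSP90 of that compartment, had -0.12 (SE 0.22) and Hspa5, its HSP70, had -0.085 (SE 0.24). Whether the lists differ from each other was not tested.

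**Figure D4:**
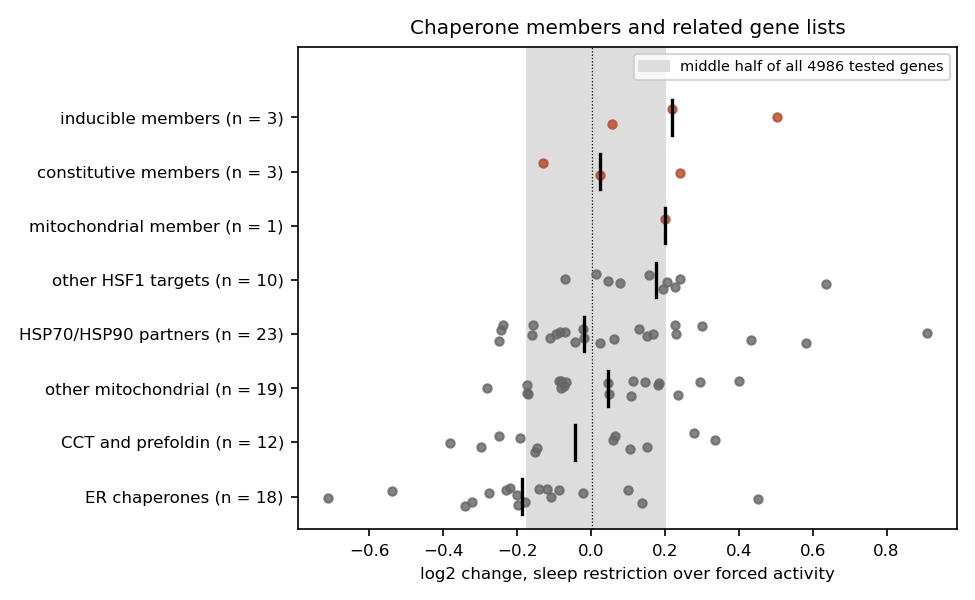
Log2 change of sleep restriction over forced activity for every tested gene of the members (red) and of the related lists (grey), with black bars at each list's median; the grey band holds the middle 50% of all 4986 tested genes and the dotted line is their median. No gene shown was called; the inducible members have a median of 0.22, the other HSF1 targets 0.18 and the endoplasmic reticulum chaperones -0.19.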

How the data were processed

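The deposited values are estimated counts, listed by Ensembl gene in 1 table with symbols and intervals. The submitters' processing notes name CASAVA, STAR 2.4.1d and build rn6 without their roles. No counting tool is named. The values are multiples of 0.1, and sleep restriction 2 is whole at 32544 of 32545 genes while at most 9.12% of the values above 0 are whole in any other library, as averages over draws of reads to equal depth would be. The table's name also reads so, and marks sense-strand counts.

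Counts were rounded, and edgeR 4.0.16 (R 4.3.3) was run on them (TMM factors, filterByExpr at a minimum count of 10, robust quasi-likelihood F test, no covariate), with Benjamini-Hochberg adjustment over all genes kept. Log2 changes carry a prior count of 2, the SE is the change over the square root of F, and intervals use its degrees of freedom. Differences within a replicate number are of log2 CPM with the same prior count. Alternatives used DESeq2 1.42.0, limma-voom 3.58.1, other scalings and filters, a replicate block and each library left out. The procedure was tested on simulated data. The members, lists and tests were chosen with earlier results of these data known. Named genes are the members, the 2 of each related list with the smallest p, any called gene, and Hspa1a, Hspa1b, Hsf1, Hspa4, Hspa9, Trap1, St13, Stip1, Bag3, Fkbp5, Hspa5 and Hsp90b1; 1 gene that this rule names is not reported here.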

Additional observations from a re-analysis of the deposited data

How the results depend on the processing

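The precision for each member is that of its interval, which with 2 libraries a group was widest for Hspb1, the tested member with the fewest counts. No member was called under any alternative run. The count of genes called, 1 in the chosen fit, was 2 with DESeq2, 0 with limma-voom, with non-robust dispersions and without a gene filter, and lay between 0 and 0 when single libraries were dropped, a fit in which the spread of the remaining group stands in for that of a lone library. A replicate block gave 11, of which 2 were higher. Nothing in the labels ties equal replicate numbers to 1 animal or batch, so the block was kept as an alternative. Same-numbered deviations correlated at 0.206 over 4986 genes, and 2 pairs are too few to settle whether the numbers mark a shared source.

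The median change of the members ran from -0.019 to 0.15 with 1 library left out, and from 0.17 to 0.21 in the other alternatives. With 1 library left out, members whose sign reversed ran from -0.038 to 0.46 (Dnaja1) and from -0.019 to 0.38 (Hspd1), both lowest without sleep restriction 2, from -0.20 to 0.37 (Hsph1), lowest without forced activity 1, and from -0.12 to 0.63 (Dnajb1), lowest without forced activity 2. Fkbp4 ran from -0.048 without forced activity 1 to 0.098, was -0.039 without sleep restriction 2, -0.0014 with no filter and -0.0049 where 5 CPM in 2 libraries was required. The Dnajb1 to Dnaja1 difference ran from -0.35 to 0.40 with 1 library left out. These causes were not tested. An older quasi-likelihood version was added after seeing the data and changed no call or sign of a member.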
